A study of Mus musculus with 6 samples.

Results

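The Mu class glutathione transferases are *Gstm1*, *Gstm2*, *Gstm3*, *Gstm4*, *Gstm5*, *Gstm6* and *Gstm7*, 7 of the 25184 genes in the count table of primary hepatocytes from mice with floxed *Sucnr1*, the gene of the succinate receptor, with or without a Cre transgene. All 7 were measured in all 6 libraries and all 7 passed the filter on low counts. They were selected from earlier results of the comparison of the genotypes, so their differences between genotypes are a description, and calls in that comparison are printed only as background. The comparison of the RNA extraction days was not used in that choice and was tested.

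Hepatocytes came from chow-fed mice and were cultured overnight on collagen before RNA extraction. The control group, *Sucnr1* fl/fl, was *Sucnr1* fl/fl Alb-Cre -/-, so both *Sucnr1* alleles were floxed and no Cre was present (replicates 1, 2 and 3). The Hep-*Sucnr1* KO group was *Sucnr1* fl/fl Alb-Cre +/- (replicates 3, 4 and 5), in which the albumin promoter drives Cre in hepatocytes, and only this group carried the transgene. Floxed alleles were thus shared by all mice, no treatment is named in the labels, and neither age nor sex of these mice is given in the labels. The groups are called controls and knockouts from here on. RNA of control replicate 1 and knockout replicate 3 was extracted on day 1 and that of the other 4 libraries on day 2. The labels number the libraries but do not say that each came from a separate mouse, so p-values measure the spread between these libraries, which may be technical.

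Glutathione transferases join the thiol of glutathione to electrophiles, among them products of drug oxidation and of lipid peroxidation, which makes them more soluble and ready for export. Mu class enzymes are cytosolic dimers, abundant in liver, where several are higher around the central vein than around the portal tract. Many of their genes respond to electrophiles through NRF2 (encoded by *Nfe2l2*), which binds antioxidant response elements with small MAF proteins.

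The library totals lay between 30504248 and 38770694 counts, and 1 CPM (a count scaled to the TMM-adjusted library total) stood for 30.33 to 38.45 counts. *Sucnr1* itself was at 6.71, 3.55 and 3.4 CPM in control replicates 1, 2 and 3 and at 2.66, 0.827 and 0.152 CPM in knockout replicates 3, 4 and 5. Every knockout library was thus below every control library, with the most *Sucnr1* left in replicate 3. The summed level of 8 hepatocyte markers was 62800 to 95000 CPM. Markers of other liver cells summed to 5.92 to 104 CPM for Kupffer cells, 21.5 to 48.1 CPM for sinusoidal endothelial cells, 3.43 to 21 CPM for stellate cells and 350 to 651 CPM for cholangiocytes, the last mostly *Spp1*. The Y-linked genes of the sex marker list were present in all 6 libraries, and *Xist* had at most 1 count. Knockout replicate 4 stood apart in genes of pericentral hepatocytes, with the highest level of the 6 libraries for 14 of 16 pericentral landmark genes. In such bulk RNA, more cells of a kind and more RNA per cell cannot be told apart.

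All 7 genes lie within 149074 bases of chromosome 3 (GRCm38), chr3:107895821-108044894, and no other protein-coding gene lies between them. From the lower coordinate the order is *Gstm5*, *Gstm7*, *Gstm6*, *Gstm3*, *Gstm2*, *Gstm1* and *Gstm4*. *Gstm5* is on the forward strand and the other 6 are on the reverse strand. The exons of *Gstm5* overlap the antisense gene *4933431E20Rik* by 178 bases on the opposite strand, and the counting used strand. The other members overlap no annotated gene. The first bases of the coding sequences show how close the genes are, which matters for the assignment of reads. Bases that differ from *Gstm1* in the alignment are in capitals below (GENCODE transcripts, GRCm38, 5′ to 3′ on the coding strand).
Gstm1: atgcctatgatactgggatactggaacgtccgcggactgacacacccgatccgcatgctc
Gstm2: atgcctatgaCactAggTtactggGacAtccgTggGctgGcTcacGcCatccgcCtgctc
Gstm3: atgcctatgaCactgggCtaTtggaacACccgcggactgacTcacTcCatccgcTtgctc
Gstm4: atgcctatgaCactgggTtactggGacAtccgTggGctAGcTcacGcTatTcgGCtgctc
Gstm5: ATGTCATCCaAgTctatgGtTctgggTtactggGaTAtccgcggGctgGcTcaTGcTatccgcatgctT
Gstm6: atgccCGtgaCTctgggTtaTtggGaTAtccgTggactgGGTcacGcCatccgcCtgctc
Gstm7: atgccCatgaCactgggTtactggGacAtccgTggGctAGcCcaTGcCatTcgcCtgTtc

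Over these first 60 bases *Gstm3* differed from *Gstm1* at 9 positions, the fewest of the 6, and *Gstm6* and *Gstm7* differed at 16 each. *Gstm5* starts with 9 bases that have no partner in *Gstm1* and differed at 24 positions when these are counted. Of the coding sequences, 6 have 657 bases and that of *Gstm5* has 675. Identity over the whole coding sequence ran from 69.6% (*Gstm3* and *Gstm5*) to 89.5% (*Gstm1* and *Gstm3*), with a median of 82.3% over the 21 pairs. The longest identical stretch was 125 bases, between *Gstm3* and *Gstm6*, and the next was 112 bases, between *Gstm1* and *Gstm3*.

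Of all windows of 50 bases in the annotated transcripts of *Gstm3*, 28.76% also occur in a transcript of another gene. The share was 18.88% for *Gstm1*, 5.97% for *Gstm6*, 5.65% for *Gstm2* and 0.53% for *Gstm7*, and it was 0 for *Gstm4* and *Gstm5*. With windows of 100 bases the shares of *Gstm3* and *Gstm1* were 13.78% and 5.86%. *Gstm3* shared 124 windows of 50 bases with *Gstm1*, 76 with *Gstm6* and 202 with the pseudogene *Gm8834*. A read pair that lies wholly in such a stretch cannot be told apart by sequence, and how read pairs matching several genes were counted is not stated. At these window lengths the assignment of read pairs is therefore least certain for *Gstm3* and *Gstm1*, and *Gstm4* and *Gstm5* do not carry this limit. The shares were smaller with the longer windows, and windows above 100 bases were not examined. The 5 other genes that share windows with *Gstm1*, *Gstm2*, *Gstm3* or *Gstm6*, of which 4 are annotated as pseudogenes, had few counts, in sum 35 to 66 per library and at most 0.179% of the family sum. *Gstm2-ps1* was the largest of them, with 29, 35 and 31 counts in controls and 24, 34 and 44 in knockouts.

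**Figure D1:**
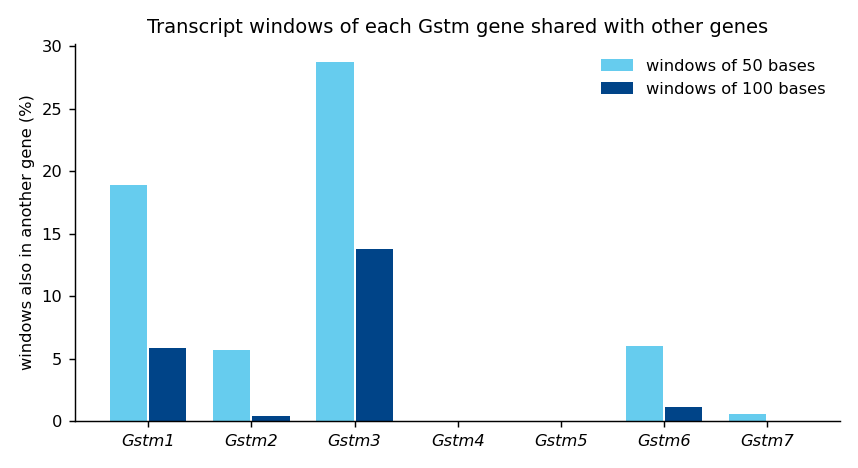
Bars show, for each *Gstm* gene, the percentage of transcript windows of 50 bases (light) and 100 bases (dark) that also occur in a transcript of another gene. *Gstm3* (28.76% and 13.78%) and *Gstm1* (18.88% and 5.86%) share the most sequence, and *Gstm4* and *Gstm5* share none.

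The promoters were searched for the core of the antioxidant response element, TGACNNNGC, on both strands of the 300 bases from 250 before to 50 after each start site (RefSeq, GRCm38.p6). It was found in 2 of the 12 windows of the members, belonging to 2 of the 7 genes, whereas 12.4% of all 32851 windows and 14.0% of the 27025 genes hold it. For *Gstm7* the match was in the window chr3:107931565-107931864, and the window of its other start site, chr3:107931768-107932067, held none. The matched stretch lies within the annotated *Gstm7* gene, chr3:107926334-107931817, on the reverse strand. Both matches are shown with the motif in capitals. That of *Gstm5* is at chr3:107895802-107895830 on the forward strand, 42 bases before its start site. That of *Gstm7* is at chr3:107931725-107931753 on the reverse strand, 129 bases before the start site of its window.
Gstm5: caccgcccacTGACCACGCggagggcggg
Gstm7: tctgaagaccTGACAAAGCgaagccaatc

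*Gstm1* made up most of the family. Per kilobase of exon it stood at 572 CPM (range 482 to 721 over the 6 libraries), and its counts were 79.1% to 85.3% of the family sum. *Gstm6* followed at 25 CPM per kilobase, *Gstm3* at 23.3, *Gstm7* at 19.6, *Gstm4* at 18.1, *Gstm2* at 13.0 and *Gstm5* at 4.57. The level of *Gstm1* was above that of *Gstm6* in every library, by 4.53 ± 0.32 on the log2 scale (SD, n = 6), and *Gstm2* was above *Gstm5* in every library, by 1.40 ± 0.78. Between these ends the ranges of neighbours in the order overlapped. *Gstm6* was above *Gstm3*, *Gstm3* above *Gstm7* and *Gstm7* above *Gstm4* in 4 of 6 libraries each. Per kilobase of exon their order is thus not set beyond the spread. *Gstm4* was above *Gstm2* in 5 of 6 libraries, and these genes changed places when the longest transcript was used as the length. By that length *Gstm6* was at 42.2 CPM per kilobase and *Gstm3* at 23.3, so the distance between them depends on the length chosen.

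Among 26 genes of all glutathione transferase classes in the table, *Gstm1* ranked 4 by level per kilobase, after *Gstp1* (Pi class, 1370 CPM per kilobase), *Mgst1* (microsomal, 857) and *Gstp2* (741), the Pi class genes being near-identical copies that may share reads. The next, *Gsta3* of the Alpha class, was at 140 CPM per kilobase. The 5 members from *Gstm6* to *Gstm2* took ranks 13 to 17, and *Gstm5* ranked 20.

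**Figure D2:**
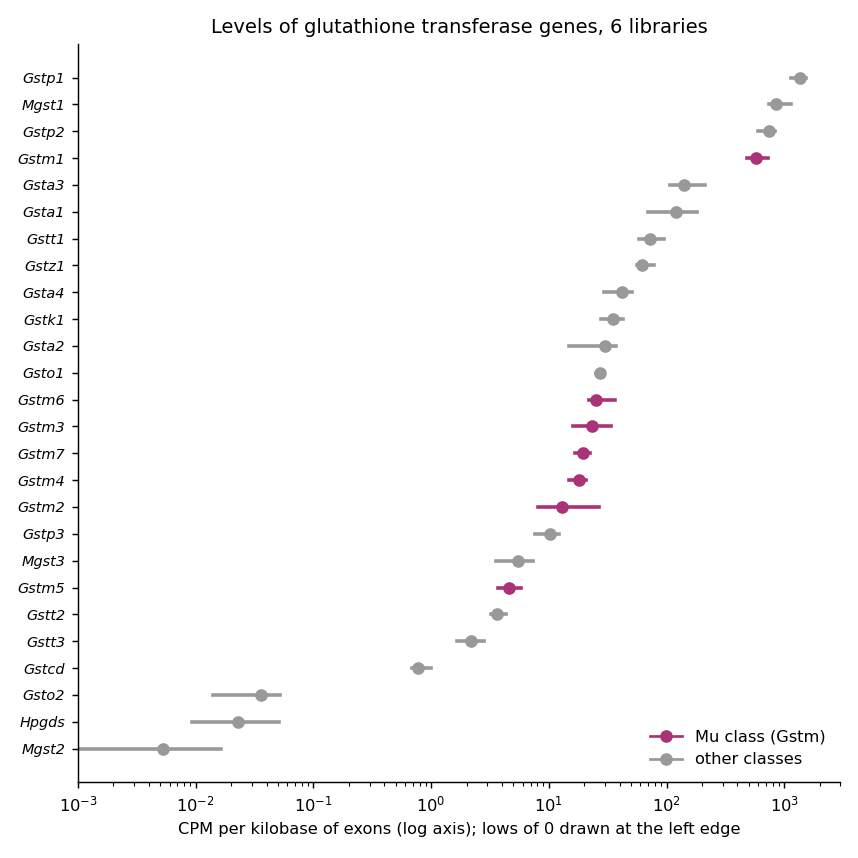
Points show the mean level of each glutathione transferase gene in CPM per kilobase of exon (log axis) and lines the lowest and highest of the 6 libraries, with the Mu class in purple and other classes in grey. *Gstm1* at 572 stands among the 4 highest genes, and the other Mu class genes lie between 4.57 and 25.

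*Gstm1*, the main hepatic Mu class gene, was at 758, 865 and 796 CPM in control replicates 1, 2 and 3 and at 711, 861 and 1060 CPM in knockout replicates 3, 4 and 5. The genotypes overlapped, since the lowest and the highest value were both from knockouts. The means were 806 ± 54.0 and 878 ± 176 CPM (SD, n = 3 each), and the fitted log2 fold change, knockout over control, was 0.11 (SE 0.15). With each library left out it ran from -0.01, without knockout replicate 5, to 0.21, without control replicate 1.

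*Gstm3* was at 21.1, 25.3 and 23.6 CPM in control replicates 1, 2 and 3. In knockout replicates 3, 4 and 5 it was at 33.2, 36.5 and 43.9 CPM. The genotypes did not overlap, and the lowest knockout library was the one extracted on day 1. The means were 23.3 ± 2.10 and 37.9 ± 5.49 CPM (SD, n = 3 each), with a fitted log2 fold change of 0.70 (SE 0.12), or 1.62-fold. The difference was 0.65 within day 1, with 1 library per genotype, and 0.71 within day 2, and it ran from 0.61 to 0.76 with each library left out. *Gstm1* had 36, 34.2 and 33.7 times the counts of *Gstm3* in controls and 21.4, 23.6 and 24.2 times in knockouts. This ratio restates the values of both genes and is no separate result.

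*Gstm4* was at 25, 29.3 and 28.2 CPM in controls and at 35.5, 34.3 and 33.6 CPM in knockouts. The genotypes did not overlap here either, and the 3 knockout libraries were close to one another. The means were 27.5 ± 2.21 and 34.4 ± 0.923 CPM (SD, n = 3 each), with a fitted log2 fold change of 0.33 (SE 0.11), or 1.26-fold. Within day 1 the difference was 0.50 and within day 2 it was 0.24.

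*Gstm2* was at 13.6, 17.0 and 16.5 CPM in controls and at 22.0, 45.1 and 16.8 CPM in knockouts. Replicate 4 was far above all other libraries, while replicate 5 lay within the range of controls, so the genotypes overlapped. The means were 15.7 ± 1.84 and 28.0 ± 15 CPM (SD, n = 3 each), and the fitted log2 fold change of 0.82 (SE 0.33), the largest of the 7, was 0.30 without knockout replicate 4.

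*Gstm6* was at 43.3, 45.9 and 46.9 CPM in controls and at 44.3, 72.3 and 45.4 CPM in knockouts. Again replicate 4 alone was high, and the other 5 libraries lay within a narrow range. The log2 fold change was 0.24 (SE 0.18), -0.0029 without that library and 0.39 without knockout replicate 5.

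The library that set *Gstm2* and *Gstm6* apart was also the one in which 14 of the 16 pericentral landmark genes were highest. *Glul*, the glutamine synthetase of the hepatocytes next to the central vein, was at 1000 CPM there and at 398 to 646 CPM in the other 5 libraries. *Cyp2e1*, a pericentral cytochrome P450, was at 3430 CPM against 684 to 2080 CPM. Relative to the mean of the 6 libraries, the median of the 16 landmarks was 1.07 on the log2 scale in knockout replicate 4 and -0.80 in replicate 5. In replicate 5, where the median of those landmarks was lowest, *Gstm2* and *Gstm6* lay at -0.25 and -0.10 while *Gstm3* and *Gstm1* were at their highest, 0.57 and 0.35. The part of the pericentral pattern in the levels of the members was not tested.

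*Gstm7* was at 30.4, 26.7 and 32.0 CPM in controls and at 30.1, 33.9 and 35.5 CPM in knockouts. Its range over the 6 libraries was the narrowest, 1.33 times from lowest to highest, against 3.31 times for *Gstm2*, and the log2 fold change was 0.16 (SE 0.12), from 0.06 without control replicate 2 to 0.24 without control replicate 1. *Gstm5*, the least abundant member, was at 6.4, 4.75 and 6.07 CPM in controls and at 5.57, 4.87 and 7.38 CPM in knockouts. Both genotypes covered nearly the same range, with a log2 fold change of 0.05 (SE 0.22), which ran from -0.17 without knockout replicate 5 to 0.18 without control replicate 1.

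**Figure D3:**
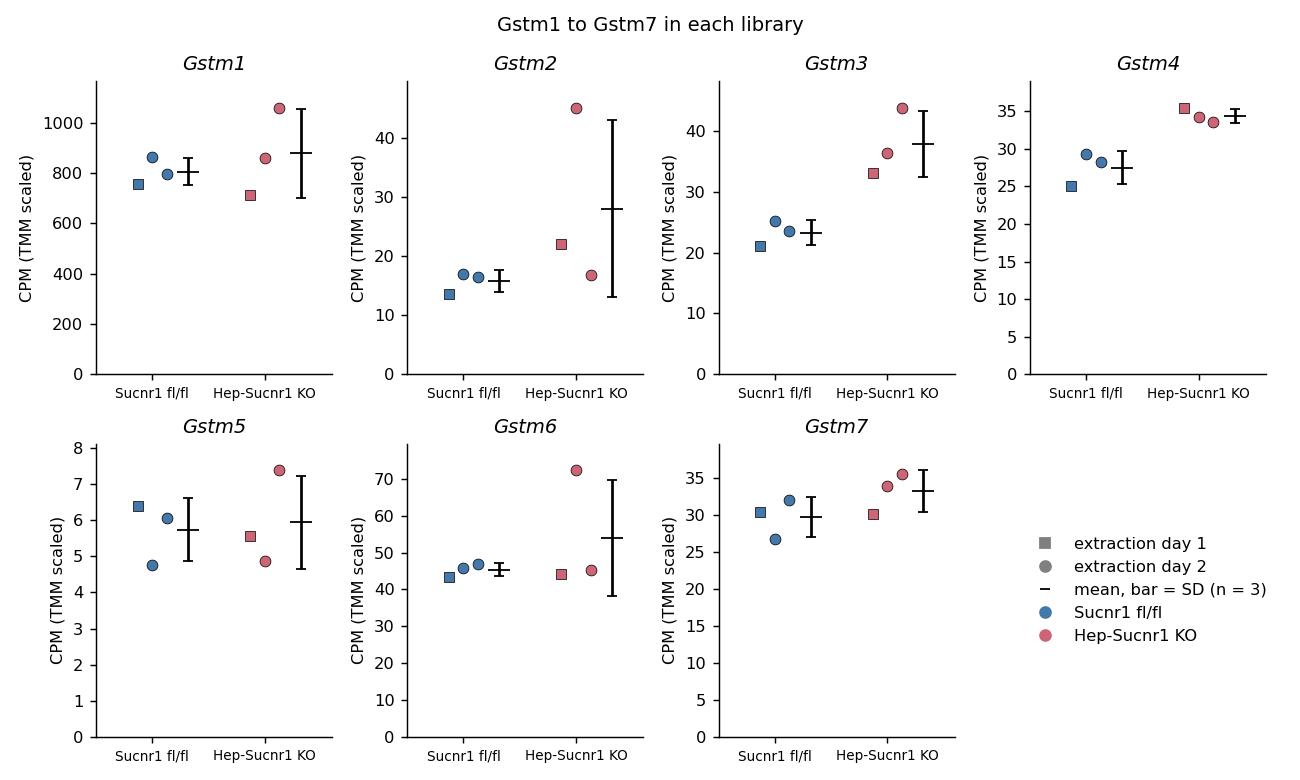
Points show the CPM of each *Gstm* gene in each library (blue, control, *Sucnr1* fl/fl; red, knockout, Hep-*Sucnr1* KO; squares, extraction day 1; circles, day 2) beside the mean and SD of each genotype (n = 3), on axes that start at 0. The genotypes do not overlap for *Gstm3* and *Gstm4*, and for *Gstm2* and *Gstm6* 1 knockout library, at 45.1 and 72.3 CPM, lies above the rest.

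**Figure D4:**
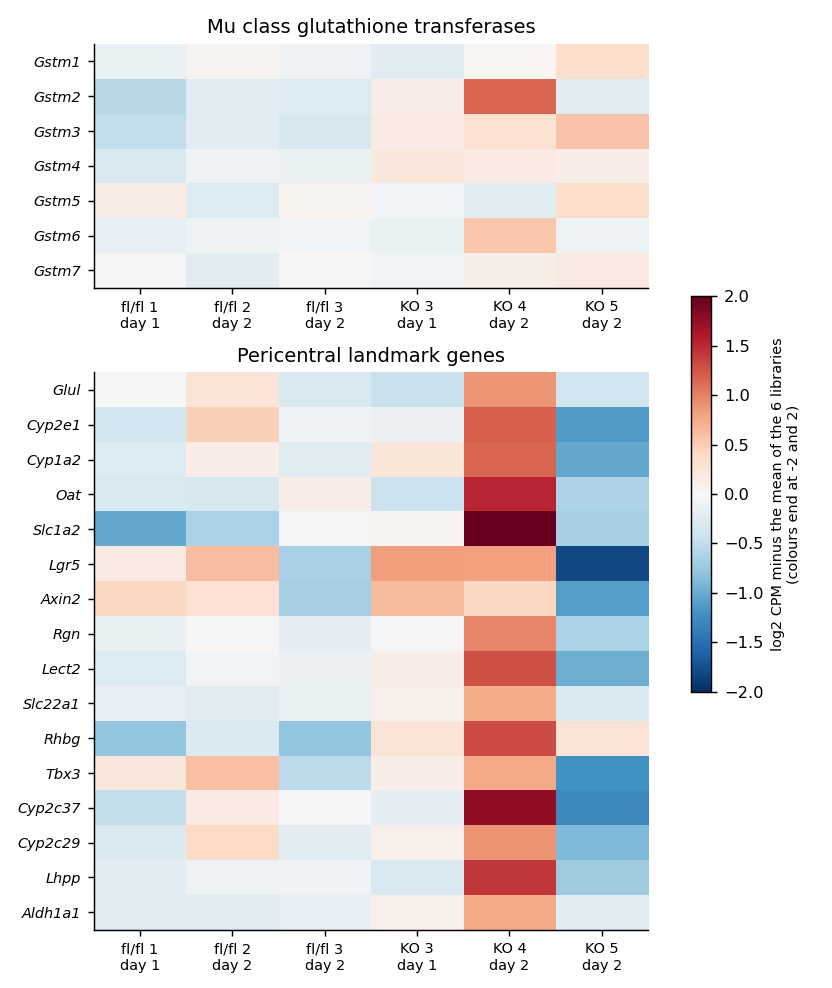
Colours show log2 CPM minus the mean of the 6 libraries for the *Gstm* genes (top) and the 16 pericentral landmarks (bottom), with 1 column per library (fl/fl, control; KO, knockout) and its extraction day. The column of KO replicate 4 is highest for 14 of the landmarks and for *Gstm2* and *Gstm6*, whereas *Gstm1*, *Gstm3*, *Gstm5* and *Gstm7* are highest in replicate 5.

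Over the 7 members, 7 fitted differences between genotypes were above 0, as were 50.5% of all 15105 genes tested, and the median log2 fold change was 0.24 beside 0.003 over all genes. For 2 of the 7, *Gstm3* and *Gstm4*, every knockout library was above every control library, which held for 6.54% of all genes. With edgeR's quasi-likelihood test 0 members and 0% of the genes had a false discovery rate (FDR) below 0.05, and at an unadjusted p below 0.05 there were 3 members and 563 genes, 3.73% of those tested. DESeq2 called 7 genes (0.0463%), and *Gstm3* was 1 of them. Since the members were chosen from this contrast, nothing is read from these counts.

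The family as a whole, dominated by *Gstm1*, summed to 954 ± 57.9 CPM in controls and 1070 ± 182 CPM in knockouts (SD, n = 3 each). Read pairs that move between members stay within this sum, but any that were dropped or counted to another gene do not. Its fitted log2 fold change was 0.16 (SE 0.14), 0.07 without knockout replicate 5 and 0.25 without control replicate 1. The genotypes overlapped in this sum, which was lowest in knockout replicate 3, at 881 CPM. The sum of the 6 members other than *Gstm1* was 140, 149 and 153 CPM in controls and 171, 227 and 183 CPM in knockouts. The 227 CPM is from replicate 4, where *Gstm2* and *Gstm6* were high. Since the members were chosen from this contrast, nothing is read from that sum. *Gstm3* took 2.44% ± 0.0818 of the family counts in controls and 3.55% ± 0.206 in knockouts (SD, n = 3 each). In knockout replicate 4, *Gstm2* took 4.14% of the family counts and *Gstm1* 79.1%, its lowest share.

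The second comparison asked whether the members differed between RNA extraction days, in the same fit with genotype as a term. None of the 7 passed, and 0% of the 15105 genes did with edgeR at an FDR of 0.05. At an unadjusted p below 0.05 there were 0 members among 1132 genes (7.49%). DESeq2 called 220 genes (1.46%), with 0 members among them. The estimates for day 2 against day 1 were above 0 for 6 of the 7 members, beside 53.3% of all genes, and their median was 0.24 beside 0.0169 over all genes. That median was 0.07 without knockout replicate 4 and 0.09 without knockout replicate 3.

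*Gstm3* had the smallest p among the members, with 27.2 CPM on average on day 1 and 32.3 CPM on day 2, a log2 fold change of 0.24 (SE 0.12) and an edgeR FDR of 0.77. *Gstm1* was at 735 and 896 CPM on average, a log2 fold change of 0.28 (SE 0.17, edgeR FDR 0.836), which was 0.09 without knockout replicate 3 and 0.44 without control replicate 1. For *Gstm1* and *Gstm6* every day 2 library was above every day 1 library, as for 8.51% of all genes, and the estimate of *Gstm6*, 0.25, ran from 0.06 without knockout replicate 3 to 0.41 without control replicate 1. *Gstm2* had the largest estimate, 0.40 (SE 0.35), and it was near 0 (0.00043) without knockout replicate 4 and 0.62 without knockout replicate 5 (edgeR unadjusted p = 0.0156, FDR 0.436). *Gstm5* was the only member below 0, at -0.06 (SE 0.23). The summed family was at 0.26 (SE 0.15, edgeR FDR 0.834).

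Markers of Kupffer cells, the macrophages of the liver, summed to 5.92 and 33.2 CPM in the day 1 libraries and to 28.5 to 104 CPM in the day 2 libraries, so the days overlapped. Of these markers, 5 of 8 had an unadjusted p below 0.05, with a median log2 fold change of 2.06, 0 of 8 past the FDR with edgeR and 1, *C1qa*, called by DESeq2. No marker of that list was at 0 in any library. Stellate cell markers were at 7.22 and 21 CPM on day 1 and at 3.43 to 8.03 CPM on day 2, with *Col3a1*, *Des* and *Hand2* at 0 in at least 1 library each. Their part in the values of the members was not tested.

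**Figure D5:**
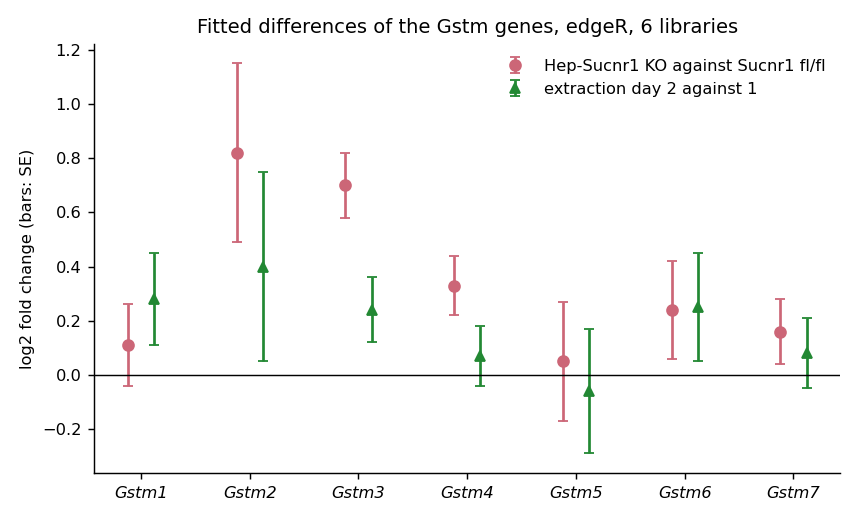
Points show the fitted log2 fold change of each *Gstm* gene for knockout against control (red circles, a description) and for extraction day 2 against day 1 (green triangles), with bars of 1 SE from edgeR. *Gstm2* (0.82) and *Gstm3* (0.70) have the largest genotype estimates, and the bar of *Gstm3* is much shorter.

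The median SD of log2 CPM within a genotype was 0.216 for the members and 0.243 for all genes tested, and the median biological coefficient of variation was 0.156 beside 0.191. Among the members *Gstm4* had the smallest SD within a genotype (0.0878) and *Gstm2* the largest (0.533). Of the 7 members, 4 were highest in knockout replicate 5 and 2 in replicate 4, beside 17.5% and 19.3% of all genes tested, and 4 were lowest in control replicate 1, beside 20.4%.

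The genes around the cluster gave values for comparison. The 6 described were *Ahcyl1*, *Csf1*, *Gnai3*, *Ampd2*, *Gnat2* and *Amigo1*, all protein-coding and tested. Their genotype log2 fold changes ran from -0.06 for *Csf1*, a macrophage growth factor, to 0.11 for *Ahcyl1*, and in none of these 6 did the genotypes separate. In the day comparison *Csf1* was at 31.5 CPM on day 1 and 48.5 CPM on day 2, a log2 fold change of 0.63 (SE 0.28, edgeR FDR 0.691). *Gnai3*, a G protein subunit gene, was at -0.18 (SE 0.12). The estimates of *Ampd2*, *Gnat2* and *Amigo1* were 0.11, 0.29 and 0.16.

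The rest of the glutathione pathway and related genes were read from lists, and in both comparisons 0 genes of the lists below passed the FDR with edgeR or the same threshold with DESeq2. At an unadjusted p below 0.05 in edgeR, *Nat8f5* (0.82) of conjugate processing and the pericentral *Rhbg* (1.42) had genotype estimates above 0, and the periportal *Hsd17b6* (-0.99) and the culture gene *Ccn1* (-0.46) below 0. *Acy3* (-0.51) of conjugate processing and the regulator *Bach1* had day estimates below 0 at that threshold. Over all genes tested, 3.73% met it for genotype and 7.49% for day, and nothing is read from these single genes. Of 19 genes of other glutathione transferase classes, 16 were tested, 11 had a genotype estimate above 0 (median 0.12) and 11 a day estimate above 0 (median 0.09). *Gstp1*, the most abundant, was at 2050 ± 279 and 2190 ± 211 CPM in controls and knockouts (SD, n = 3 each). The largest day estimates were 0.23 for *Gstt3* (Theta class) and -0.26 for *Gsta1* (Alpha class).

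Of 17 genes of glutathione synthesis and recycling, 13 had a genotype estimate above 0 (median 0.07) and 13 a day estimate above 0 (median 0.08). *Gpx1*, a glutathione peroxidase, was the most abundant at 1290 ± 129 and 1390 ± 30.4 CPM (SD, n = 3 each). *Slc7a11*, the cystine transporter, had the largest day estimate, 1.12 (SE 0.57), and *Cth*, which makes cysteine from cystathionine, the lowest, -0.09 (SE 0.15). Of 24 genes of conjugate export and mercapturic acid formation in the table, 20 were tested, with median estimates of -0.02 for genotype and -0.01 for day. *Nat8f2* was the most abundant (690 and 667 CPM), and the exporter *Abcc4* (0.46) and *Nat8f3* (-0.53) had the extreme day estimates.

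Of 16 regulators of *Gstm* transcription, 5 had a genotype estimate above 0 (median -0.04) and 6 a day estimate above 0 (median -0.01), and both medians were -0.13 without knockout replicate 4. *Cebpb*, a hepatocyte transcription factor, was the most abundant. *Nfe2l2* was at 175 ± 6.55 and 182 ± 3.66 CPM (SD, n = 3 each). *Bach1*, a repressor at antioxidant response elements, had the lowest day estimate, -0.40 (SE 0.15, edgeR FDR 0.606), and *Nr1i3*, the receptor CAR, the highest, 0.39 (SE 0.50). Of 19 tested NRF2 targets outside the family, 14 had a genotype estimate above 0 with a median of 0.06, and 11 a day estimate above 0 with a median of 0.03. *Hmox1*, heme oxygenase, was the most abundant of them and had a day estimate of -0.22 (SE 0.16).

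Zonation and culture lists gave wider values. Over the 16 pericentral landmarks the median estimate was 0.45 for genotype and 0.29 for day, from 1.07 for *Slc1a2*, a glutamate transporter, to -0.66 for *Axin2*, a Wnt target, in the day comparison. Without knockout replicate 4, a fit added after seeing the data, these medians were -0.38 and -0.17. Over the 16 periportal landmarks the medians were -0.08 and -0.11, with *Ass1* of the urea cycle the most abundant and day estimates from -0.56 (*Cdh1*) to 0.09 (*G6pc*). Over 19 tested genes of dedifferentiation in culture they were -0.03 and 0.01, with *Krt18* the most abundant and day estimates from -0.35 (*Spp1*) to 0.95 (*Cd24a*). Without that library the genotype medians of the periportal and culture lists were 0.10 and 0.07.

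The genes whose pattern over the 6 libraries was most like the mean of the members were *Nicn1* (Pearson's r = 0.986), *Ick* (0.985), *Rpl27-ps3* (0.984), *Mup6* (0.98) and *Mpi* (0.98), out of 15098 genes compared. These are descriptions over 6 libraries that share their scaling, and 46 genes had an r of 0.95 or more. The mean deviation of the members that was compared ran from -0.22 in control replicate 1 to 0.30 in knockout replicate 4 on the log2 scale.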

How the data were processed

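The authors trimmed reads of stranded paired-end mRNA libraries with Trim Galore 0.6.7, aligned them to GRCm38 with STAR 2.7.10a, counted read pairs per gene by strand with featureCounts (Ensembl 102) and deposited raw counts that are not normalized. How pairs matching more than 1 gene were handled is not given in the sources used here.

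Of 25184 genes, the 15105 whose DESeq2-normalized counts averaged above 5 were fitted in edgeR 4.0.16 (R 4.3.3) with TMM factors, extraction day and genotype, and adjusted by Benjamini-Hochberg over all of them at 0.05. DESeq2, which the authors used with extraction date as a covariate, was the alternative here (version 1.42.0), adjusted over the same genes. The log2 CPM used a prior count of 2. The fits were tested on simulated counts with known changes. These were drawn independently for each gene, without shifts shared by many genes in a library. The shares called may therefore not hold for the real data. Of genes changed by a log2 of 1, edgeR called 51% for day and 53% for genotype, and DESeq2 65% and 68%. For a log2 of 2, edgeR called 96% and 95%. Of the unchanged genes, edgeR called 8 for day and 7 for genotype, and DESeq2 called more, 27 and 35. In the real data edgeR gave *Sucnr1*, with a genotype log2 fold change of -2.23, an FDR of 0.998. Changes below a log2 of 1 were not simulated, so a member that is not called may still differ. The members and lists were chosen with earlier results of these data known. Named genes are the members, the most abundant gene and those with the extreme extraction day estimates of the lists, the 5 genes most like the members, *Sucnr1* and, chosen after their values were seen, *Nfe2l2*, *Glul*, *C1qa*, *Nat8f5*, *Rhbg*, *Hsd17b6*, *Ccn1* and *Acy3*, and neighbours of the cluster, of which 1 is not reported here. For marker lists summed levels are given. Exon lengths, coding sequences and windows came from GENCODE M21 and promoters from RefSeq. Identity was computed on coding bases, not on proteins as planned, since no protein table was used here. The members had 158 to 34965 counts per library, and counting error was not separated from the spread between libraries, which for *Gstm4* in knockouts is no wider than counting alone gives. Replicates were compared as separate libraries, and none were identical. An exact permutation test cannot give a p below 0.1 with 3 libraries against 3, so none was run.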

Additional observations from a re-analysis of the deposited data

Results flagged for a closer look

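For *Gstm7*, Hep-*Sucnr1* KO replicate 3 was below *Sucnr1* fl/fl replicate 1 on extraction day 1, by -0.01 in log2 CPM, whereas every Hep-*Sucnr1* KO library of day 2 was above every *Sucnr1* fl/fl library of day 2, with a mean difference of 0.24. The opposite signs drew attention to it, but the day 1 value rests on 1 library of each genotype and is too small beside counting error to give a direction. The difference between the days was not tested. *Gstm1* (-0.09 on day 1, 0.20 on day 2) and *Gstm5* (-0.20 and 0.16) also had opposite signs, with genotypes that overlapped on day 2.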

How the results depend on the processing

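With each library left out, 0 members were called with edgeR in either comparison, and the log2 fold change of the summed family ran from 0.07 to 0.25 for genotype and from 0.09 to 0.40 for extraction day. DESeq2 called 1 member (*Gstm3*) for genotype, and with its default independent filtering, added after seeing the data, it called 0 members, since *Gstm3* had no adjusted p there. That filtering left 12299 of 15105 genes without an adjusted p for genotype. *Gstm2*, *Gstm3*, *Gstm4*, *Gstm5* and *Gstm7* were among them and could not be called. Other scalings, filters, a robust fit, a fit without the other term, the day 2 libraries alone and an FDR of 0.1 called 0 members. Over all genes, DESeq2 called 7 for genotype (13 with independent filtering) and 220 for day (227), and edgeR called 122 for day with no filter on low counts and 29 without *Sucnr1* fl/fl replicate 2, against 0 in the fits given in the report. The day estimates of 3 members turned with a library left out. *Gstm4* ran from -0.06 to 0.16 (-0.06 without *Sucnr1* fl/fl replicate 1, -0.0033 without replicate 2), *Gstm5* from -0.28 to 0.14 (0.14 and 0.0049 without the same libraries, 0.03 without Hep-*Sucnr1* KO replicate 4) and *Gstm7* from -0.09 to 0.21 (-0.09 without Hep-*Sucnr1* KO replicate 3). The cause was not tested. By Spearman correlation 42 genes shared the members' order exactly (rho = 1), and 3 of the 5 genes named as most alike were among them. No paired analysis was possible because the genotypes share only replicate number 3, and its libraries were extracted on different days. The 2 day 1 libraries limit the precision of the day comparison.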
